A study of Mus musculus with 47 samples.

Results

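The comparison was of female with male kidney in NZO/HlLtJ, an inbred mouse strain that becomes obese. All libraries whose title names this strain were used, 8 from females and 8 from males, of 47 RNA-seq libraries in the series. Each sex held 4 libraries from mice on a diet of 10% fat with fiber and 4 from mice on a diet of 44% fat with fiber. The design text names a control and a high-fat, high-sugar feed without tying either name to a percentage. All were labelled wild type with no further treatment, began the diet at 6 weeks of age and gave tissue at 15 weeks. The tissue label is metanephros and the series title names kidney. Markers of its segments were present in all 16 libraries, with Lrp2 of the proximal tubule at 4473 CPM or more and Umod of the thick ascending limb at 1403 CPM or more. The markers of adrenal cortex that could be tested, 2 of 8 listed, summed to 3.68 CPM at most. Whether the libraries of a group came from separate animals is not stated, so p-values speak only of the spread among the libraries, which may be technical. Genes were restricted to chromosomes 1 to 19, which hold 21715 of the 22474 genes deposited, and 18195 of these passed the filter on low counts. Values are CPM, read counts scaled by TMM to a common library size of 1 M, and log2 fold changes are female over male as the mean of both diets. Adjusted p-values come from edgeR's quasi-likelihood F test over all genes tested, called at an adjusted p under 0.05. SE is an approximate standard error, the absolute log2 fold change divided by the square root of the F value of that test.

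The proximal tubule of the nephron reabsorbs most filtered glucose, amino acids, phosphate and water, and it secretes organic anions and cations, among them drugs and urate, through carriers of the SLC22, SLCO, SLC17, SLC47 and ABC families. It is also a site of xenobiotic metabolism, where cytochrome P450s, reductases and dehydrogenases modify foreign and steroid compounds and transferases conjugate them for excretion. The segments called S1, S2 and S3 follow each other along this tubule, and the thin limb, thick ascending limb, distal convoluted tubule, connecting tubule and collecting duct come after them. In mouse kidney the androgen receptor acts in proximal tubule cells, and several genes of this tubule are long known to respond to androgen.

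The total lay between 39.4 M and 51.5 M counts in a library (M, the unit prefix mega), with medians of 46.2 M in females and 44.25 M in males. Xist was at 1127 to 1401 CPM in libraries labelled female and did not exceed 0.666 CPM in the others, where the Y-linked Ddx3y was at 48.6 to 78.2 CPM (0.0228 CPM at most in the libraries labelled female), so sex as labelled fitted the data. The first principal component over 7597 autosomal genes held 80.4% of the variance, and 99.3% of its spread lay between the sexes. The 10 highest genes took 14.1% to 16.8% of the counts in females and 15.4% to 18.9% in males (2-sided exact permutation test over 12870 relabelings, p = 0.00373, 0.0112 adjusted over 3 library measures). The TMM factors were 1.035 to 1.109 in females and 0.911 to 0.993 in males and did not overlap. Scaling by library size alone, an alternative added after seeing the data, put the median log2 fold change of autosomal genes at 0.21 in place of 0.04. The library of a female on 44% fat numbered replicate 2 stood apart in markers of B and plasma cells, whose sum was 293 CPM there, with a median of 11.9 CPM over all 8 females.

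The sexes differed in 9090 autosomal genes, 50% of those tested, of which 4594 (25.2%) were higher in females and 4496 (24.7%) in males. Within run 77, a block of library numbers that holds both diets in each sex, the direction was the same for 173 of 173 named called genes, and 164 were called there. The libraries of every run were part of the fit that named these genes, so agreement within a run is no separate support. Of all 4594 genes called higher in females 2703 were called the same way in run 77, and of the 4496 higher in males 2857. What the runs stand for is not stated. In the other 2 runs the sexes were on different diets, so sex and diet cannot be told apart there. The direction was the same for 171 of 173 genes in run 81 and 172 of 172 in run 89. On 1 diet alone, the females outside run 77 were in a different run from the males, so those values also rest on the run term. Without the library that stood apart the counts were 4347 and 4399, and with library size alone 7962 and 2072. A difference of 2-fold or more was called for 787 genes (4.33%) higher in females and 472 (2.59%) higher in males, and one of 4-fold or more for 219 (1.2%) and 172 (0.945%). All 8 females lay above all 8 males in 1444 genes (7.94%), and all males above all females in 1679 (9.23%). As in any bulk tissue, fewer cells of a type and less RNA per cell cannot be told apart in these values.

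The carriers of organic anions and urate split into a male-high and a female-high set. Of 29 carriers tested, 12 were higher in females and 15 in males, and Abcc6 and Slco1a6 did not pass the test. A difference of 2-fold or more was found for 9 and 7 of them. Over all autosomal genes 25.2% and 24.7% were called in these directions, and 4.33% and 2.59% by 2-fold or more. Slco1a1 (ENSMUSG00000041698, chromosome 6, 141907282 to 141946962, GRCm38), an uptake carrier for steroid conjugates and other anions, held 369.6 to 749 CPM (median 579) in males and 0 to 0.0894 CPM (median 0.041) in females. It had the lowest log2 fold change of all genes that could be named, -13.52 (SE 0.38, adjusted p 1.99e-25), and its female level rested on 18 counts over 8 libraries. Slc17a2, a sodium-phosphate cotransporter of the SLC17 family, was the reverse case, with 15.4 to 25.2 CPM (median 20.1) in females and 0 to 0.107 CPM (median 0.0665) in males (log2 fold change 8.24, SE 0.24, adjusted p 7.27e-27). The efflux pump Abcc3 held 133 to 250.5 CPM (median 196) in females and 1.49 to 2.19 CPM (median 1.71) in males (log2 fold change 6.73, SE 0.15). No library of one sex reached the range of the other in any of these 3 genes.

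6 further genes of this group lie in 1 stretch of chromosome 19, between 7673061 and 8405111 (GRCm38), all on the minus strand, and genes beside each other differed in direction. In genomic order, Slc22a19 was higher in females (log2 fold change 0.92), Slc22a27 was higher in females (3.91), Slc22a28 was higher in males (-2.73), Slc22a29 was higher in females (5.15) and Slc22a30 was higher in males (-3.54). These encode members of the organic anion transporter family. Slc22a29 held 63.5 to 77.8 CPM (median 72.6) in females and 1.2 to 2.78 CPM (median 2.06) in males. Its neighbour Slc22a30 held 17.6 to 40.6 CPM (median 29.4) in females and 264 to 389 CPM (median 339.6) in males. Slc22a28, on the other side of Slc22a29, held 26.1 to 47.2 CPM (median 38.5) in females and 193 to 293 CPM (median 251) in males. In all 5 of these genes the sexes did not overlap, and in none was the call lost when 1 library was left out. Over all autosomal genes every female lay above every male in 7.94% and below in 9.23%. Slc22a26, between Slc22a19 and Slc22a27, held 10.2 to 54.9 CPM (median 36.6) in females and 26.6 to 64.4 CPM (median 43.1) in males, which overlap. In females it was at 44.1 to 54.9 CPM on 10% fat and 10.2 to 29.1 CPM on 44% fat. Its log2 fold change was -0.53 (adjusted p 0.0464), and this call was kept without replicate 1 of the females on 44% fat, replicate 1 of the males on 10% fat, or replicate 1 or 4 of the males on 44% fat, and was lost in the other 12 fits that left out 1 library.

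The stretches before the transcription start are shown for 3 of these neighbours, because the middle gene has the opposite direction to the outer ones while the 3 stretches hold the same motif. Each line gives 180 bases that end at the base before the start, 5′ to 3′ on the minus strand, from RefSeq on GRCm38.p6. The windows are chr19:8131983-8132162 for Slc22a28, chr19:8218901-8219080 for Slc22a29 and chr19:8405106-8405285 for Slc22a30. Capitals mark matches to ACANNNTGT, the inner letters of the element bound by androgen and glucocorticoid receptors, which reads the same on both strands.
Slc22a28: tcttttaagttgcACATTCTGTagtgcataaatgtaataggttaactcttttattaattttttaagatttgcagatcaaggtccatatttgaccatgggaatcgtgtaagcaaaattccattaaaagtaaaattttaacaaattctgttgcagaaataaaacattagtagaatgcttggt
Slc22a29: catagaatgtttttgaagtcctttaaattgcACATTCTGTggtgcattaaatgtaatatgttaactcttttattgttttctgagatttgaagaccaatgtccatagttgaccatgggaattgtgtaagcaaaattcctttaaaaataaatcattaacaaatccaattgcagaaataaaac
Slc22a30: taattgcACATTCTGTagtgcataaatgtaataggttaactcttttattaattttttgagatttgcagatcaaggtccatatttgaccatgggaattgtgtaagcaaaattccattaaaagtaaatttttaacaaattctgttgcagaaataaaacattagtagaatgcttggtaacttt
The match, with the letters ACATTCTGT, began 167 bases before the start in Slc22a28, 149 in Slc22a29 and 173 in Slc22a30. Over 250 bases before the start, Slc22a28 and Slc22a30 aligned with 239 identical bases, 4 mismatches and 14 gap columns. Slc22a29 aligned with 185 identical bases to Slc22a28 and 184 to Slc22a30. No match lay within 250 bases before the start of Slc22a19, Slc22a26 or Slc22a27. Of 31396 autosomal RefSeq promoters of the same length, 5.86% held this motif. Among genes tested with a RefSeq entry it was 573 of 11587 (4.95%), 34 of 426 (7.98%) for those 2-fold or more higher in females and 28 of 273 (10.3%) for those 2-fold or more higher in males. The full palindromic element of these receptors was found before 2 of the 11587 genes, and before none of either sex-biased set. A match is a run of letters, and binding was not measured. Of the transcript 31-mers (stretches of 31 bases, GENCODE M21), Slc22a28 shares 68.2% with other genes, Slc22a27 46.9%, Slc22a29 44% and Slc22a30 42.9%, so how reads were split among these copies bears on their values.

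The basolateral uptake carriers OAT1 and OAT3, which take up anions from blood, differed in opposite directions, and their genes also neighbour each other on chromosome 19. Slc22a6, which encodes OAT1, held 287 to 429.7 CPM (median 348) in females and 812 to 1093 CPM (median 923) in males (log2 fold change -1.43, SE 0.07, adjusted p 3.3e-21). Slc22a8, which encodes OAT3, held 475 to 553 CPM (median 529) in females and 175 to 248 CPM (median 201) in males (log2 fold change 1.33, SE 0.08, adjusted p 1.81e-17). The sexes did not overlap in either gene. Slc22a12, the mouse form of the urate exchanger URAT1, was higher in males (log2 fold change -0.97), as were Slco4c1 (-2.62) and Slco3a1 (-1.77), both uptake carriers of the SLCO family. The apical efflux pumps Abcc2 (-0.63) and Abcg2 (-0.36) were also higher in males, by less than 2-fold. Slc22a7 (1.36), Slc22a13 (1.39), the prostaglandin carrier Slco2a1 (1.24) and the efflux pump Abcc4 (1.80) were higher in females. In Slc22a7 the males on 44% fat were uneven, at 25.5 to 119.7 CPM, against 100.2 to 114 CPM in the males on 10% fat.

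**Figure D1:**
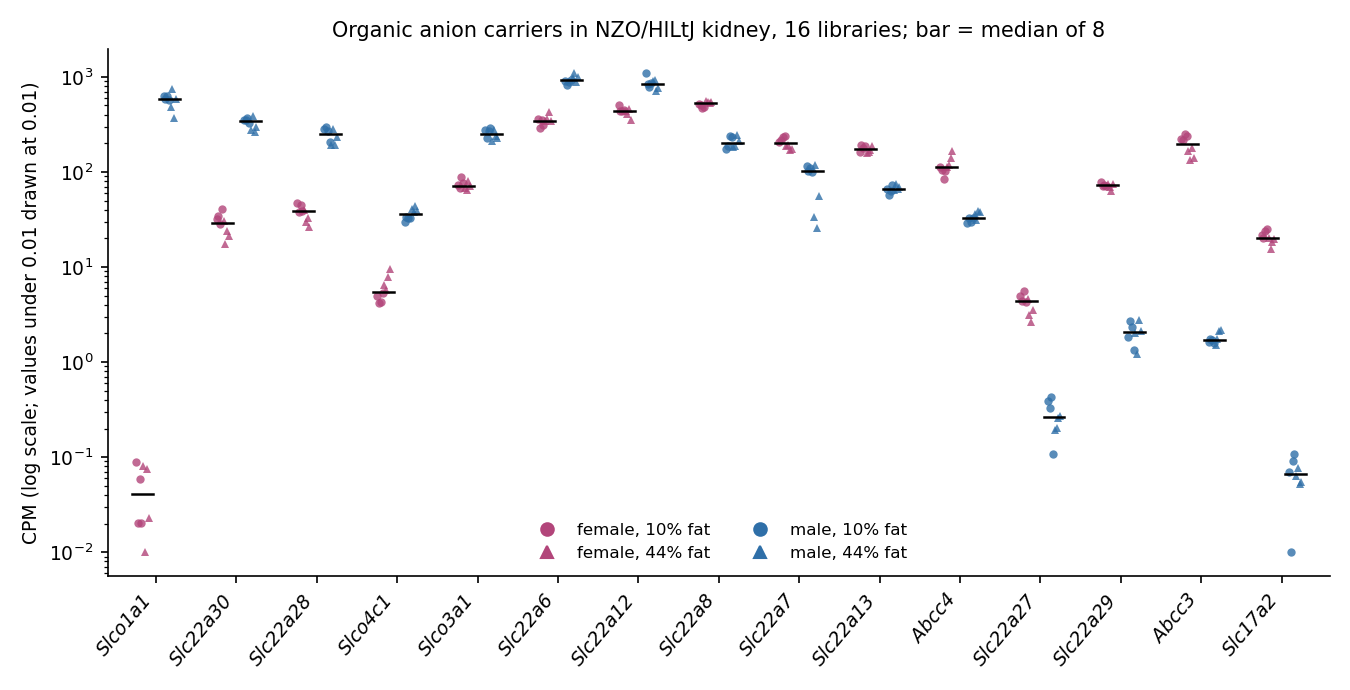
Level of 15 organic anion carriers in each of 16 NZO/HlLtJ libraries, on a log axis in CPM, for females and males, with circles for 10% fat, triangles for 44% fat and bars for the median of 8 libraries. Slco1a1, Slc22a30 and Slc22a28 are high in all 8 males, Slc22a27, Slc22a29, Abcc3 and Slc17a2 in all 8 females. The sexes do not overlap in any of the 15 genes, which were chosen for display. Among all 29 carriers tested, 10 had every female above every male and 12 the reverse, against 7.94% and 9.23% of all autosomal genes.

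Carriers of organic cations differed in both directions. The proximal secretion route of uptake by OCT2 and efflux by MATE1 was higher in males in both steps. Slc22a2, which encodes OCT2, held 125 to 156 CPM (median 135) in females and 243 to 336 CPM (median 269.7) in males (log2 fold change -1.06, SE 0.07, adjusted p 1.07e-16). Slc47a1, which encodes MATE1, held 328 to 361 CPM (median 336) in females and 563 to 669 CPM (median 626) in males (log2 fold change -0.87, SE 0.04, adjusted p 1.37e-21). The genes of the multidrug efflux pump P-glycoprotein went the other way. Abcb1b held 152 to 222 CPM (median 158) in females and 33.2 to 65.7 CPM (median 39.8) in males (log2 fold change 2.01, SE 0.17), and Abcb1a had a log2 fold change of 1.87 (SE 0.16). Slc29a1, an equilibrative nucleoside carrier, was higher in females (0.53). Of 14 carriers in this group, 6 were higher in females, 4 in males and 4 did not pass the test. Over all autosomal genes 25.2% were higher in females and 24.7% in males.

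Glucose carriers showed smaller differences, none of them 2-fold. The high-capacity apical cotransporter Slc5a2 (SGLT2) held 338 to 429 CPM (median 389) in females and 341 to 446 CPM (median 399) in males, and its basolateral partner Slc2a2 held 173 to 284 CPM (median 254) and 181 to 324 CPM (median 267). Neither passed the test (log2 fold changes -0.04 and -0.05, adjusted p 0.5 and 0.669), and both values turned positive with library size alone (0.13 and 0.12). The late proximal cotransporter Slc5a1 (SGLT1) was higher in females, 112 to 139 CPM (median 127) against 67.1 to 93.1 CPM (median 74.9) (log2 fold change 0.73, SE 0.07, adjusted p 4.63e-11). Slc2a1 (0.58), the insulin-responsive carrier Slc2a4 (0.59), Slc5a9 (0.61) and the myo-inositol cotransporter Slc5a3 (0.56) were higher in females as well. In all, 8 of 12 sugar carriers were higher in females, against 25.2% of all autosomal genes, and the 1 male-high call, Slc50a1, was lost in 12 of 16 fits that left out 1 library.

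Among amino acid carriers, 2 related genes of the SLC7 family that are known as S3 genes held the most sex-biased values and in opposite directions. Slc7a13 held 1.68 to 2.81 CPM (median 2.24) in females and 762 to 1182 CPM (median 979.6) in males (log2 fold change -8.77, SE 0.16, adjusted p 2.83e-32). Slc7a12 held 185 to 345 CPM (median 313) in females and 4.72 to 26.9 CPM (median 7.16) in males (log2 fold change 5.02, SE 0.34, adjusted p 9.09e-15). The cystine carrier was higher in females in its light chain Slc7a9 (log2 fold change 0.68) and by less in its heavy chain Slc3a1 (0.19). The neutral amino acid carriers Slc7a8 (1.00) and Slc6a18 (0.63) and the peptide carrier Slc15a2 (0.83) were higher in females, and Slc1a4 (-0.88) in males. Over all autosomal genes 25.2% were higher in females and 24.7% in males. Of 26 genes in this group 13 were higher in females, 6 in males and 7 did not pass the test. Slc7a12 and Slc7a13 were the genes called with a difference of 2-fold or more. Under library size alone 3 in place of 6 were higher in males.

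Carriers of carboxylates, sulfate and phosphate were called about as often as all autosomal genes, of which 25.2% were higher in females and 24.7% in males. Of 14 mono- and dicarboxylate and sulfate carriers, 3 were higher in females, 4 in males and 7 did not pass, and with library size alone 6 were higher in females. Slc5a8, a sodium-coupled lactate and monocarboxylate carrier, held 160.1 to 206 CPM (median 179.5) in females and 475 to 612 CPM (median 518) in males (log2 fold change -1.53, SE 0.07, adjusted p 1.71e-21), and the sulfate carrier Slc26a1 was higher in males by less (-0.42). The monocarboxylate carriers Slc16a4 (0.67) and Slc16a7 (0.60) were higher in females. Slc34a1, the main apical phosphate carrier, was higher in males (log2 fold change -0.35, SE 0.05, adjusted p 1.4e-07), as was the carbonic anhydrase Car4 (-0.65), while the sodium-proton exchanger Slc9a8 was higher in females (0.78). The water channel Aqp1 held 602 to 789 CPM (median 675) in females and 639 to 767 CPM (median 693) in males and did not pass the test (log2 fold change -0.04, and 0.13 with library size alone). Of 18 genes for proximal sodium, phosphate, bicarbonate and water transport, 5 were higher in each sex, and with library size alone 11 were higher in females and 3 in males. Over all 321 SLC genes tested, 117 were higher in females, 97 in males and 107 did not pass, and with library size alone 161 and 54, against 7962 and 2072 of all 18195 autosomal genes. Of 41 ABC transporters 19 were higher in females and 10 in males, and with library size alone 23 and 3.

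The cytochrome P450s of families 1 to 4 held 15 genes higher in females, 12 higher in males and 18 that did not pass, of 45 tested. Over all autosomal genes these shares were 25.2% and 24.7%. A difference of 2-fold or more was found for 6 in females and 9 in males, against 4.33% and 2.59% of all genes. Cyp2j13 held 1.56 to 4.57 CPM (median 2.22) in females and 547 to 744 CPM (median 666) in males (log2 fold change -7.99, SE 0.17, adjusted p 3.66e-30). Cyp4b1, which acts on fatty acids and foreign compounds, held 73.2 to 240.0 CPM (median 175) in females and 1854 to 3494 CPM (median 2754) in males (log2 fold change -4.12, SE 0.19). Cyp2e1, which oxidizes ethanol and small solvents, held 37 to 87.5 CPM (median 45.5) in females and 1161 to 1981 CPM (median 1381) in males (log2 fold change -4.80, SE 0.14). Cyp2d9 (-4.37) and, at under 4 CPM in every library, Cyp2b10 (-5.71) were also higher in males.

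The CYP4A family of fatty acid hydroxylases, which lies on chromosome 4, was split by sex. Cyp4a12a held 1.77 to 3.79 CPM (median 2.72) in females and 170.1 to 619.5 CPM (median 499) in males (log2 fold change -7.35, SE 0.29, adjusted p 3.4e-21). Cyp4a14 held 357 to 609.5 CPM (median 472) in females and 0.76 to 27.4 CPM (median 2.43) in males (log2 fold change 6.96, SE 0.42, adjusted p 7.02e-16). Cyp4a10 was higher in females by less, 363 to 562 CPM (median 464) against 60.4 to 308 CPM (median 97.2) (log2 fold change 1.99). All 8 libraries of the higher sex lay above all 8 of the other in each of the 3. Shared 31-mers made up 62.2% of Cyp4a12a and 44.9% of Cyp4a10. Cyp2d26 (1.88), Cyp2c44 (2.09) and Cyp4f14 (2.15) were the other P450s named here that were higher in females.

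UDP-glucuronosyltransferases, which attach glucuronic acid, leaned to males, and 1 member had the most female-biased value in the 9 enzyme families. Of 16 tested, 3 were higher in females and 11 in males, against 25.2% and 24.7% of all autosomal genes. The median log2 fold change was -1.29, and 10 of the 11 differed by 2-fold or more, against 2.59% of all genes. Ugt2b38 held 65.8 to 129 CPM (median 79.8) in females and 1150 to 1631 CPM (median 1367) in males (log2 fold change -4.00, SE 0.11, adjusted p 2.21e-27). The female-high members were Ugt1a2, Ugt2b34 and Ugt1a1. Ugt1a2 held 711 to 886 CPM (median 821) in females and 1.51 to 3.73 CPM (median 2.3) in males (log2 fold change 8.36, SE 0.27, adjusted p 1.23e-23). Ugt2b34 held 51 to 67.8 CPM (median 55.6) and 3.32 to 6.16 CPM (median 4.29) (log2 fold change 3.70), and Ugt1a1 had a log2 fold change of 2.00. The Ugt1a genes of chromosome 1 differ in their first exon and share the others, and they did not move together. Ugt1a7c (-3.10), Ugt1a6b (-2.78) and Ugt1a6a (-1.12) were higher in males, and Ugt3a2 of another family likewise (-1.02). Shared 31-mers made up 65.1% of Ugt1a2, 58.5% of Ugt1a1, 55.7% of Ugt1a7c, 84.2% of Ugt1a6b and 52.9% of Ugt2b38.

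Glutathione S-transferases, which conjugate electrophiles with glutathione, leaned to females. Of 22 tested, 11 were higher in females and 5 in males, and all 6 that differed by 2-fold or more were higher in females. Over all autosomal genes 25.2% were higher in females and 24.7% in males, and 4.33% and 2.59% by 2-fold or more. Gsta2 held 122 to 199.7 CPM (median 171) in females and 5.17 to 26.4 CPM (median 8.56) in males (log2 fold change 4.06, SE 0.22, adjusted p 1.71e-17), with 60.7% of its 31-mers shared with other genes. Gsta3 (1.75), Gsto1 (1.47) and Gsta4 (1.31) were higher in females, and Gstm5 (-0.76) in males. The counts were 13 in females and 2 in males with library size alone. The sulfotransferase Sult1a1 was higher in females (log2 fold change 1.94, SE 0.15) and Sult1d1, which conjugates catecholamines and other phenols, in males by less (-0.36).

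Enzymes that hydrolyse esters or act on aldehydes, alcohols and steroids held their larger differences in males. Of 14 carboxylesterases 4 were higher in females and 6 in males, the first near the 25.2% of all autosomal genes and the second above their 24.7%. Ces1f held 79.8 to 112 CPM (median 95.7) in females and 708 to 1197 CPM (median 1002) in males (log2 fold change -3.33, SE 0.11, adjusted p 2.41e-25), Ces2c had a log2 fold change of -1.77, and Ces2g (1.07) and Ces2e (0.50) were higher in females. When replicate 1 of the males on 44% fat was left out, 2 carboxylesterases in place of 4 were called higher in females. Of the flavin-containing monooxygenases, which oxidize nitrogen and sulfur, Fmo5 held 9.05 to 15.7 CPM (median 11.3) in females and 107 to 162 CPM (median 131) in males (log2 fold change -3.49, SE 0.13), and Fmo2 was higher in males by less (-0.47). The cytosolic aldehyde dehydrogenases Aldh1a7 (-4.60) and Aldh1a1 (-1.68), the latter a retinal dehydrogenase, and the fatty aldehyde dehydrogenase Aldh3a2 (-1.03) were higher in males, and Aldh1b1 (1.91) and Aldh1a2 (1.04) in females.

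Over all autosomal genes 25.2% were higher in females and 24.7% in males. Of 31 alcohol dehydrogenases, aldo-keto and carbonyl reductases, epoxide hydrolases and quinone reductases, 7 were higher in females and 14 in males. With library size alone 11 were higher in each sex, and without replicate 2 of the females on 44% fat 4 were higher in females. Akr1c21, a hydroxysteroid dehydrogenase, held 5.61 to 14.8 CPM (median 8.75) in females and 593 to 913 CPM (median 739) in males (log2 fold change -6.40, SE 0.12, adjusted p 8.39e-33). The alcohol dehydrogenase Adh1 (-2.59), Akr1c14 (-2.17), the soluble epoxide hydrolase Ephx2 (-1.74) and the steroid reductase Akr1d1 (-1.29) were higher in males. The carbonyl reductase Cbr1 was the reverse, with 154 to 192 CPM (median 173) in females and 12.4 to 18.1 CPM (median 14.2) in males (log2 fold change 3.52, SE 0.08, adjusted p 4.67e-31), and Akr1c18, which inactivates progesterone, was also higher in females (1.42). Of 13 genes for medium-chain acyl-CoA ligation, glycine conjugation and acetylation, 8 were higher in males and 1 in females. Acsm3 held 2.09 to 4.44 CPM (median 2.97) in females and 304 to 925 CPM (median 744) in males (log2 fold change -7.66, SE 0.24). Acsm2 held 1347 to 1732 CPM (median 1496) and 5631 to 7668 CPM (median 6497) (log2 fold change -2.12, SE 0.08), and the acetyltransferase Nat8 was higher in males (-1.97). The 1 female-high call, Nat14, was lost in 9 of 16 fits that left out 1 library.

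**Figure D2:**
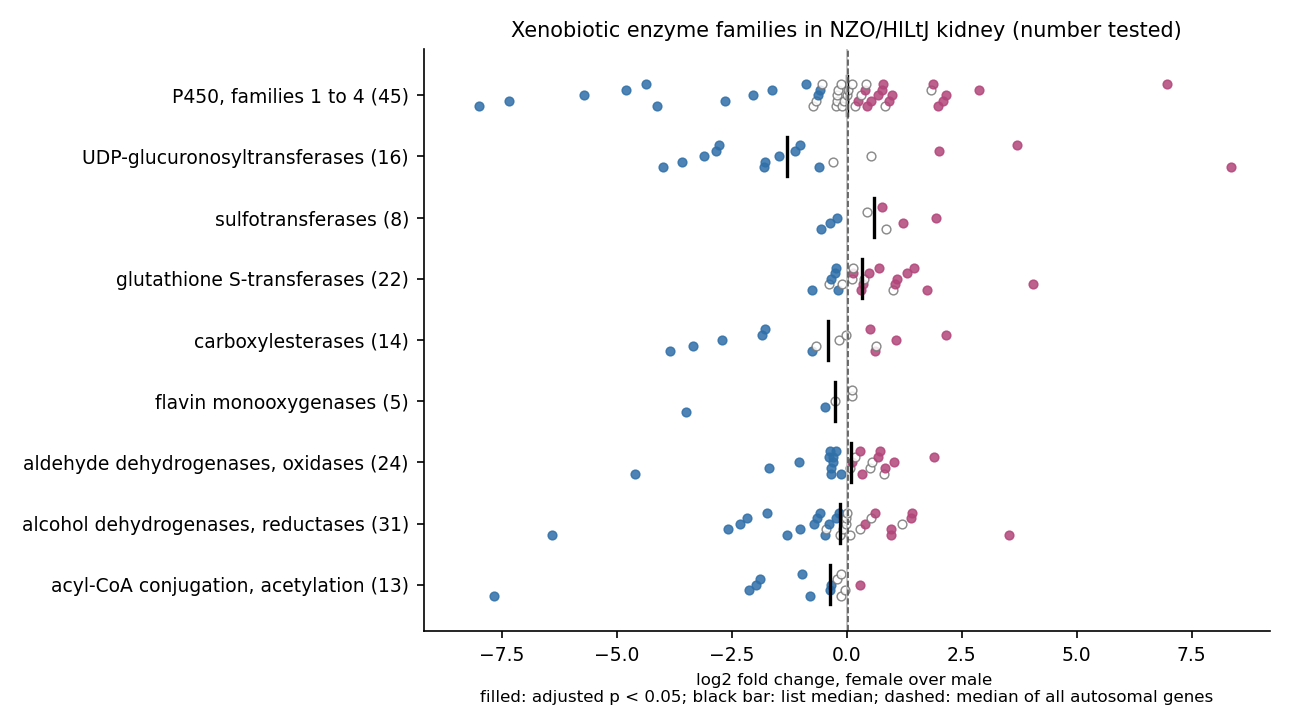
Log2 fold change, female over male, of each tested member of 9 xenobiotic enzyme families, with filled points for an adjusted p under 0.05, black bars for the median of a family and a dashed line for the median of all autosomal genes (0.04). UDP-glucuronosyltransferases have their median at -1.29 with Ugt1a2 at 8.36, and all glutathione S-transferases past 2-fold lie on the female side.

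Markers of the segments after the proximal tubule, and of podocytes, were higher in females in most cases, with Cldn19 and Nos1 the ones past 2-fold. Of 27 genes for distal ion, urea and water transport, 22 were higher in females, against 25.2% of all autosomal genes, with a median log2 fold change of 0.55. In the thick ascending limb, 13 of 14 markers were higher in females and Cldn10 did not pass. Umod, which encodes uromodulin, held 2812 to 3318 CPM (median 2990) in females and 1403 to 2217 CPM (median 1874) in males (log2 fold change 0.69, SE 0.05, adjusted p 6.03e-15). The salt cotransporter Slc12a1 held 1682 to 2027 CPM (median 1981) in females and 1059 to 1332 CPM (median 1156) in males (log2 fold change 0.70, SE 0.07). Egf (0.81), the claudin Cldn19 (1.07), the chloride channel subunit Bsnd (0.90), the potassium channel Kcnj1 (0.70) and the macula densa enzyme Nos1 (1.69) were also higher in females. The summed level of the 14 markers was 7558 to 8874 CPM in females and 4461 to 5726 CPM in males.

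The same direction was seen in the distal convoluted tubule, where 6 of 9 markers were higher in females and none in males. Over all autosomal genes 25.2% were higher in females and 24.7% in males. The thiazide-sensitive cotransporter Slc12a3 held 835 to 963 CPM (median 867) in females and 482 to 625 CPM (median 540.2) in males (log2 fold change 0.69, SE 0.05, adjusted p 1.06e-14). Pvalb (0.55), Klhl3 (0.69) and the magnesium channel Trpm6 (0.41) were higher in females, as were the potassium channel Kcnj10 (0.69) and the urea carrier Slc14a1 (0.90) of the distal transport list. In the connecting tubule 5 of 7 markers were higher in females, among them the kallikrein Klk1 (0.56) and the calcium-binding protein Calb1 (0.51), and the phosphate regulator Kl was higher in males (-0.40). All 12 markers of intercalated cells, the acid-base cells of the collecting duct, were higher in females, with a median log2 fold change of 0.61. Among them were the anion exchangers Slc4a1 (0.59), Slc4a9 (0.71) and Slc26a4 (0.71), the proton pump subunit Atp6v1g3 (0.55) and the receptor Insrr (0.72). Of 11 principal cell markers 7 were higher in females, and the sodium channel subunit Scnn1a, of the distal list, had a log2 fold change of 0.46. The water channels did not follow. Aqp2 held 65.7 to 112 CPM (median 82) in females and 47.5 to 152 CPM (median 65.2) in males and did not pass (adjusted p 0.442), and the 3 male-high calls of the distal list, Aqp3, Aqp4 and the potassium channel Kcnj16, were lost without replicate 4 of the males on 44% fat and with library size alone. Without replicate 4 of the females on 10% fat 1 of the 3 remained.

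In the glomerulus, 10 of 12 podocyte markers were higher in females, against 25.2% of all autosomal genes. Clic5 was higher in males and Dach1 did not pass. Nphs1, which encodes nephrin of the slit diaphragm, had a log2 fold change of 0.80 (SE 0.06), Podxl of 0.49 and the transcription factor Wt1 of 0.65. The summed level of the 12 markers was 774.7 to 835.2 CPM in females and 530.8 to 686.3 CPM in males. Thin limb markers were higher in females in 8 of 9 genes, with a median log2 fold change of 0.66. Their summed level overlapped, at 847 to 1020 CPM in females and 797 to 943.2 CPM in males. So did the sums of connecting tubule (2444 to 2617 and 2085 to 2622 CPM) and principal cell markers (366.1 to 488.8 and 316.4 to 476 CPM). The sums of distal convoluted tubule (1806 to 2068 and 1213 to 1606 CPM) and intercalated cell markers (415.3 to 492.9 and 270.7 to 341.7 CPM) did not overlap. With library size alone no marker of the podocyte, thin limb, thick ascending limb, distal convoluted tubule or intercalated cell lists was called higher in males, and the counts higher in females were 11, 9, 14, 9 and 12.

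The proximal tubule markers did not share 1 direction. Of 16 markers of the whole proximal tubule, 4 were higher in females, 9 in males and 3 did not pass. With library size alone these counts were 4 and 6. In the main fit 25.2% of all autosomal genes were higher in females and 24.7% in males. The endocytic receptors megalin and cubilin were higher in females. Lrp2, which encodes megalin, held 7045 to 10240 CPM (median 9107) in females and 4473 to 6056 CPM (median 5435) in males (log2 fold change 0.71, SE 0.06, adjusted p 1.48e-12), and Cubn had a log2 fold change of 0.59 (SE 0.07). Miox, which degrades myo-inositol (0.42), and the gluconeogenic enzyme Pck1 (0.47) were called higher in females over both diets, each with a call on 1 diet. Pck1 was at 3944 to 5321 CPM in females and 1721 to 2643 CPM in males on 10% fat (log2 fold change 0.87, adjusted p 0.000119). On 44% fat it was at 4673 to 5229 CPM in females and 3458 to 6668 CPM in males, which overlap (log2 fold change 0.08, adjusted p 0.756). For Miox the log2 fold change was 0.14 on 10% fat (adjusted p 0.201) and 0.70 on 44% fat (adjusted p 1.44e-08). For both genes the difference between diets did not pass the test (adjusted p 0.27 and 0.217). The transcription factor Hnf4a (-0.33), the brush border peptidase Ggt1 (-0.97) and the arginine synthesis enzyme Ass1 (-0.72) were higher in males, beside Acsm2 and Slc34a1. The summed level of the 16 was 29690 to 34770 CPM in females and 32140 to 37120 CPM in males, which overlap.

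By segment of the proximal tubule, the S2 list had the lowest median, -1.43, with 4 of 7 markers higher in males (Cyp4b1, Slc22a30, Slco4c1 and Slc22a6), Slc22a8 and Slc22a13 higher in females and Slc13a3 not passing. The summed level of the S2 list was 1831 to 2242 CPM in females and 4221 to 5735 CPM in males. Most of this gap lay in Cyp4b1 alone, at 73.2 to 240 CPM in females and 1854 to 3494 CPM in males. Of 11 S3 markers 6 were higher in females and 5 in males, and over all autosomal genes 25.2% and 24.7% were called in these directions. Aadat, an aminotransferase of the kynurenine pathway, held 1397 to 1942 CPM (median 1675) in females and 150.4 to 276 CPM (median 224) in males (log2 fold change 2.90, SE 0.08, adjusted p 5.62e-28). The phospholipid flippase Atp11a held 603 to 1047 CPM (median 811) in females and 2321 to 3284 CPM (median 2869) in males (log2 fold change -1.78, SE 0.09), and Fkbp5 was higher in males (-1.48). Of 8 S1 markers 3 were higher in females and 2 in males. These counts were 5 and 0 with library size alone, and without replicate 2 of the females on 44% fat, replicate 4 of the females on 10% fat or replicate 4 of the males on 44% fat no S1 marker was higher in males. Gc, the vitamin D binding protein, held 43.8 to 58.5 CPM (median 46.9) in females and 2.42 to 6.13 CPM (median 3.17) in males (log2 fold change 3.87, SE 0.15, adjusted p 3.58e-22), and Gatm, of creatine synthesis, had a log2 fold change of 0.40. Most S2 and S3 markers with a difference of 2-fold or more are carriers or enzymes already described, so these lists are not separate evidence.

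**Figure D3:**
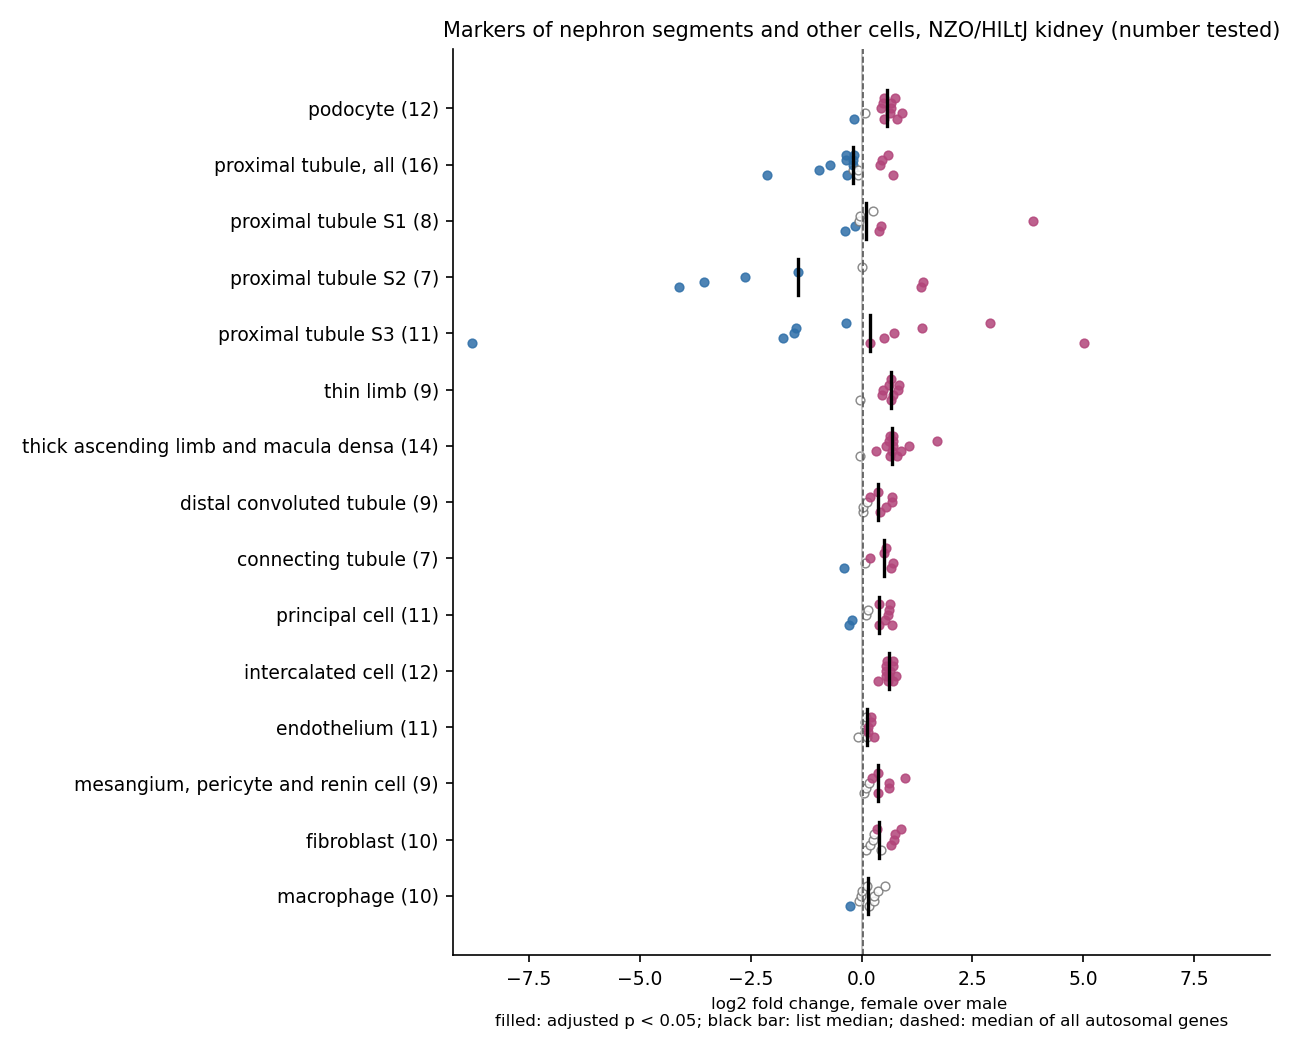
Log2 fold change, female over male, of each tested marker of 15 nephron segments and other cell types, with filled points for an adjusted p under 0.05, black bars for list medians and a dashed line for the median of all autosomal genes. Markers of the thick ascending limb and the intercalated cell lie in a narrow band on the female side, at medians of 0.70 and 0.61, while proximal S2 and S3 markers lie from -8.77 to 5.02.

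Markers of other cells were tested as well, where 25.2% of all autosomal genes were higher in females and 24.7% in males. Called in either direction were 45.5% of endothelial, 50% of fibroblast, 10% of macrophage, 25% of B and plasma cell and 20% of T and NK cell markers. Mesangial, pericyte and renin cell markers (66.7%) and adipocyte markers (71.4%) were above the 50% of all autosomal genes. Of 11 endothelial markers 5 were higher in females, among them Pecam1 (0.21), with a summed level of 594.7 to 661.3 CPM in females and 525.6 to 666.3 CPM in males, and 10 with library size alone. Of 9 mesangial, pericyte and renin cell markers 6 were higher in females, and Ren1, which encodes renin, held 76.8 to 100.4 CPM (median 88.2) in females and 37.9 to 56.5 CPM (median 43.8) in males (log2 fold change 0.98, SE 0.08, adjusted p 1.4e-12). Of 10 fibroblast markers 5 were higher in females and none in males, and 8 with library size alone. Of 10 macrophage markers 1 was called, Csf1r in males, while library size alone gave 4 higher in females and none in males. The list summed to 92.2 to 215.1 CPM in females and 99.23 to 130.7 CPM in males. Of 8 markers of B and plasma cells 2 were higher in females, both by 2-fold or more, with a list median of 0.62, and without the library that stood apart 1 was higher in females and 3 in males. Of 10 markers of T and NK cells 2 were higher in females, and 1 without that library. Adipocyte markers summed to 1.41 to 9.81 CPM in females and 0.128 to 5.34 CPM in males, and 5 of 7 were called higher in females, all by 2-fold or more, with a list median of 1.56, but limma-voom called 0, as did the quasi-likelihood test without replicate 2 of the females on 44% fat, replicate 2 of the males on 10% fat, or replicate 1 or 2 of the males on 44% fat. Adrenal cortex was represented by 2 tested genes, neither of which passed the test. The part of other cell types in the differences of tubule genes was not tested.

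The 10 listed genes long known to respond to androgen in mouse kidney were all higher in males. The list was drawn from older literature but chosen with earlier results of these data known, so its counts are no independent support. It held 10 genes, 10 of which were called, against 24.7% of all autosomal genes, with a median log2 fold change of -3.98. In all 10 the 8 males lay above the 8 females, against 9.23% of all genes. Kap, the kidney androgen-regulated protein, held 5869 to 8062 CPM (median 6482) in females and 15290 to 31170 CPM (median 22440) in males (log2 fold change -1.71, SE 0.07, adjusted p 7.6e-23). The ornithine decarboxylase Odc1 (-1.44) and the glucuronidase Gusb (-0.94) were at the lower end, and Timd2 (-3.85), Cyp7b1 (-4.91) and the cortisone reductase Hsd11b1 (-1.26) were also members, beside Slco1a1, Acsm3, Cyp2e1 and Cyp4b1. The 180 bases before the start of Kap are shown because its ACANNNTGT match lies closest to a start among the stretches printed. They lie at chr6:133853668-133853847 on the minus strand (RefSeq, GRCm38.p6), with the match in capitals, 39 bases before the start. The stretches of the other members of the list are not shown. This motif was held by 573 of 11587 genes tested with a RefSeq entry (4.95%), and binding was not measured.
Kap: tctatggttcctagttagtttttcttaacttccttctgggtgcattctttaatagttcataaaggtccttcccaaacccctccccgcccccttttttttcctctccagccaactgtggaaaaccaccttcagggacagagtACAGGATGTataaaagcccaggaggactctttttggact

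Receptors and steroid enzymes differed in both directions. The prolactin receptor Prlr held 239.8 to 399.7 CPM (median 324) in females and 3.67 to 18.8 CPM (median 5.29) in males (log2 fold change 5.53, SE 0.30, adjusted p 3.4e-17). Socs2, a feedback inhibitor of growth hormone signalling, was higher in females, 25.6 to 65.8 CPM (median 47.7) against 5.36 to 19.7 CPM (median 12.9) (log2 fold change 2.01, SE 0.21). Igf1 (1.17) and the xenobiotic receptor Nr1i2 (1.21), known as PXR, were higher in females. Cish, a further inhibitor in cytokine signalling, was called higher in females over both diets (1.04), but on 10% fat it was at 28.8, 61.8, 49.2 and 28.8 CPM in females and 88.02, 60.6, 22.7 and 69.6 CPM in males (log2 fold change -0.55, adjusted p 0.362). On 44% fat its females were at 52.4, 50.5, 73.6 and 78.4 CPM and its males at 13.3, 8.92, 9.90 and 9.47 CPM (log2 fold change 2.63, adjusted p 7.11e-05), so the groups overlapped on 10% fat and not on 44% fat. Esr1, which encodes the estrogen receptor alpha, held 16.6 to 26 CPM (median 19.6) in females and 41.9 to 60.4 CPM (median 47) in males (log2 fold change -1.29, SE 0.08, adjusted p 2.03e-16). The 5-alpha-reductase Srd5a2 (-2.44) and the hydroxysteroid dehydrogenases Hsd17b11 (-2.37) and Hsd17b2 (-2.18) were higher in males. Of 24 genes in this group 11 were higher in each sex, against 25.2% of all autosomal genes higher in females and 24.7% in males.

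The other genes among the 12 highest and 12 lowest log2 fold changes were not members of the transporter and enzyme families. Serpina6, corticosteroid-binding globulin, had the highest log2 fold change, 9.54 (SE 0.58, adjusted p 3.31e-14), with 3.82 to 21.9 CPM (median 13.4) in females and 5 counts over all 8 males. Igf2, a fetal growth factor, held 334 to 517 CPM (median 407) in females and 1.3 to 2.1 CPM (median 1.39) in males (log2 fold change 8.12, SE 0.24), and 61.9% of its 31-mers are shared with other genes. Myh1 (8.53), Atp13a4 (7.77), the glycosyltransferase B4galnt2 (6.67) and Ly6f (5.93) were at most 15.95 CPM in any female library. Ankrd31 was at 0 counts in all 8 males and at 305 counts over the females, at least 98.9-fold higher against a floor of 3 counts over the males. Pzp, a protease inhibitor of the alpha-2-macroglobulin family, held 0.716 to 1.42 CPM (median 0.91) in females and 218 to 275 CPM (median 245) in males (log2 fold change -7.90, SE 0.14). Inmt, an indolethylamine methyltransferase, held 2.12 to 4.05 CPM (median 2.79) in females and 279 to 501 CPM (median 363) in males (log2 fold change -6.99). Mpped1 (-9.60), Cntnap5a (-7.90) and the collagen Col19a1 (-5.81) were at most 19.8 CPM in any male library.

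On each diet alone the sexes differed in 6997 autosomal genes on 10% fat (38.5%; 18.5% higher in females and 19.9% in males) and in 6170 on 44% fat (33.9%; 16.7% and 17.2%). Whether the sex difference itself changed with diet was tested, and it was called for 1 gene of 18195 (0.0055%), while 2042 had an unadjusted p under 0.05. DESeq2 called 13 and 22 genes in the 2 directions in the same design. The 1 gene was Ces1g, a carboxylesterase. In males on 10% fat it was at 45.1, 42.6, 71.9 and 35.9 CPM, and in males on 44% fat at 1.96, 11.5, 9.10 and 3.71 CPM. In females it was at 0.827, 1.08, 0.296 and 0.921 CPM on 10% fat and at 3.18, 1.53, 1.52 and 1.66 CPM on 44% fat. The males on 10% fat therefore stood above all other groups, and the log2 fold change of female over male was -5.89 on 10% fat and -1.81 on 44% fat, a difference of 4.08 (SE 0.69, adjusted p 0.0191). The call was lost without replicate 1 or 3 of the females on 10% fat or replicate 1 of the females on 44% fat, and in a fit of NZO/HlLtJ alone. Cyp4a14, at 1.07 CPM (mean) in males on 10% fat and 12.9 CPM on 44% fat, and Slc22a7 did not pass this test (adjusted p 0.217 and 0.631). Nor did Gsta2, Nos1 and Cish, at adjusted p 0.221, 0.217 and 0.217.

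**Figure D4:**
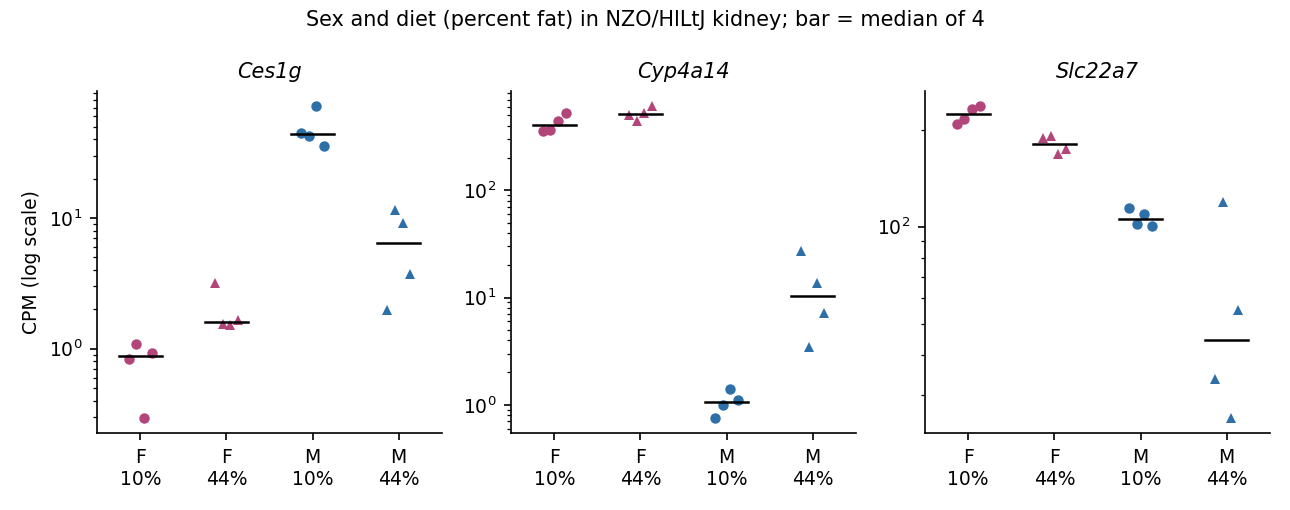
Level of Ces1g, Cyp4a14 and Slc22a7 in each NZO/HlLtJ library by sex and percent fat, on log axes in CPM, with bars for the median of 4 libraries. Ces1g is at 35.9 to 71.9 CPM in males on 10% fat and at 11.5 CPM or less in every other group, and the males on 44% fat are the most spread group in all 3 genes.

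Where the NZO/HlLtJ sex difference departs from that of the other strains was tested as a difference of differences. It was called for 916 autosomal genes against C57BL/6J (5.03%; 2.63% with a higher and 2.4% with a lower female-minus-male value in NZO/HlLtJ) and for 2614 against CAST/EiJ (14.4%; 7.79% and 6.58%). C57BL/6J gave 16 libraries and CAST/EiJ 15, on the same diets, and both comparisons share the NZO/HlLtJ libraries. Akr1c21 differed between all 3 strains most in its female level. Its females were at 5.61 to 14.8 CPM (median 8.75) in NZO/HlLtJ, 481 to 649.6 CPM (median 563) in C57BL/6J and 0.207 to 0.575 CPM (median 0.312) in CAST/EiJ, while the male medians were 739, 1048 and 614 CPM. The difference in log2 fold change was -5.48 against C57BL/6J (adjusted p 9.64e-27) and 4.42 against CAST/EiJ (adjusted p 9.85e-20).

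The aldehyde dehydrogenases Aldh1a7 and Aldh1a1, which neighbour each other on chromosome 19, were male-high in NZO/HlLtJ and in CAST/EiJ and not in C57BL/6J. The log2 fold change of female over male for Aldh1a7 was -4.60 in NZO/HlLtJ, -3.91 in CAST/EiJ and 0.03 in C57BL/6J, and for Aldh1a1 it was -1.68, -2.59 and 1.23. Aldh1a7 males were at 56.5 to 152 CPM (median 91.7) in NZO/HlLtJ, 147.8 to 254.7 CPM (median 201) in CAST/EiJ and 5.59 to 10.4 CPM (median 8.12) in C57BL/6J, and the difference in log2 fold change between NZO/HlLtJ and C57BL/6J was -4.64 (adjusted p 4.2e-17). Aldh1a1 had a difference of -2.91 (adjusted p 3.05e-19). In the same direction against C57BL/6J were Ugt1a10 (-4.07), Ugt1a6a (-1.92) and Akr1c19 (-1.72), and Ugt1a10 itself did not differ by sex in NZO/HlLtJ at the threshold (adjusted p 0.0848). A higher female-minus-male value in NZO/HlLtJ than in C57BL/6J was found for Slc9a2 (1.07), a sodium-proton exchanger, Slc24a3 (2.66), a potassium-dependent sodium-calcium exchanger, Slc13a4 (2.02), a sulfate carrier, and the transferases Gsta3 (1.52), Ugt2b34 (2.02) and Ugt2b5 (3.05). Slc9a2 males were at 23.9 to 29.6 CPM (median 25.7) in NZO/HlLtJ and 49 to 56.7 CPM (median 54.8) in C57BL/6J, while females overlapped. Ugt2b5 was under 1 CPM in every NZO/HlLtJ library and at 3.16 to 5.46 CPM (median 5.15) in C57BL/6J males. Shared 31-mers made up 72.9% of Ugt1a10, 53% of Ugt1a6a and 56.4% of Ugt2b5, so how reads were split among copies bears on their values.

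Against CAST/EiJ, Slc7a13 was more male-biased in NZO/HlLtJ, with females at 1.68 to 2.81 CPM (median 2.24) against 22.8 to 57.7 CPM (median 39.6) in CAST/EiJ (difference -4.17, adjusted p 1.41e-19). Ugt3a2 (-2.05), Slc46a3 (-2.27), Akr1d1 (-1.71), the mitochondrial carrier Slc25a48 (-1.12) and the aldehyde oxidase Aox3 (-5.00) also had a lower female-minus-male value in NZO/HlLtJ. Aox3 itself was called higher in NZO/HlLtJ females (log2 fold change 0.72), at 1.15 to 2.46 CPM against 0.562 to 1.41 CPM in males. In CAST/EiJ its females were at 62.1 to 106 CPM (median 78.4) and its males at 0.995 to 2.06 CPM. Ugt3a2, Slc46a3, Akr1d1 and Slc25a48 were male-high in NZO/HlLtJ. In CAST/EiJ their female medians (429, 5.91, 109 and 49.5 CPM) lay above the male ones (212, 4.68, 84.9 and 47.2 CPM). Slc22a22, a prostaglandin-specific anion carrier, held 109.8 to 146 CPM (median 130.5) in NZO/HlLtJ females and 0.299 to 4.09 CPM (median 1.25) in CAST/EiJ females (difference 3.97, adjusted p 3.28e-18). It was male-high in both strains, at 167 to 199 CPM in NZO/HlLtJ males (log2 fold change -0.52) and 27.9 to 36.7 CPM in CAST/EiJ males. The brush border protease Mep1a (2.35), Gstp1 (1.41), Ces1e (2.22) and Ugt2b5 (4.94) also had a higher female-minus-male value in NZO/HlLtJ. Within NZO/HlLtJ, Mep1a, Gstp1 and Ces1e were higher in males (log2 fold changes -0.35, -0.26 and -0.76), and Ugt2b5 did not pass the test. Mep1a was at 45.5 to 68.4 CPM (median 59.7) in NZO/HlLtJ males and 1675 to 1848 CPM (median 1806) in CAST/EiJ males. Shared 31-mers made up 38.5% of Gstp1 and 56.4% of Ugt2b5.

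6 genes from the ends of the NZO/HlLtJ ranking were set beside the other strains after their values were seen. Igf2 was at 334 to 517 CPM (median 407) in NZO/HlLtJ females, 49.8 to 299.9 CPM (median 213) in C57BL/6J females and 1.03 to 2.45 CPM (median 2.01) in CAST/EiJ females (difference against CAST/EiJ 7.44, adjusted p 1.73e-15). Pzp was at 0.716 to 1.42 CPM (median 0.91) in NZO/HlLtJ females and 728 to 1010 CPM (median 893) in CAST/EiJ females (difference -6.65). Prlr (2.67) and Abcc3 (2.48) were more female-biased in NZO/HlLtJ than in CAST/EiJ. B4galnt2 was at 3.1 to 12.4 CPM (median 7.95) in NZO/HlLtJ females and 0.02 to 0.185 CPM (median 0.0831) in C57BL/6J females (difference 6.51, adjusted p 0.00012), and Inmt was more male-biased in NZO/HlLtJ than in C57BL/6J (-3.17).

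**Figure D5:**
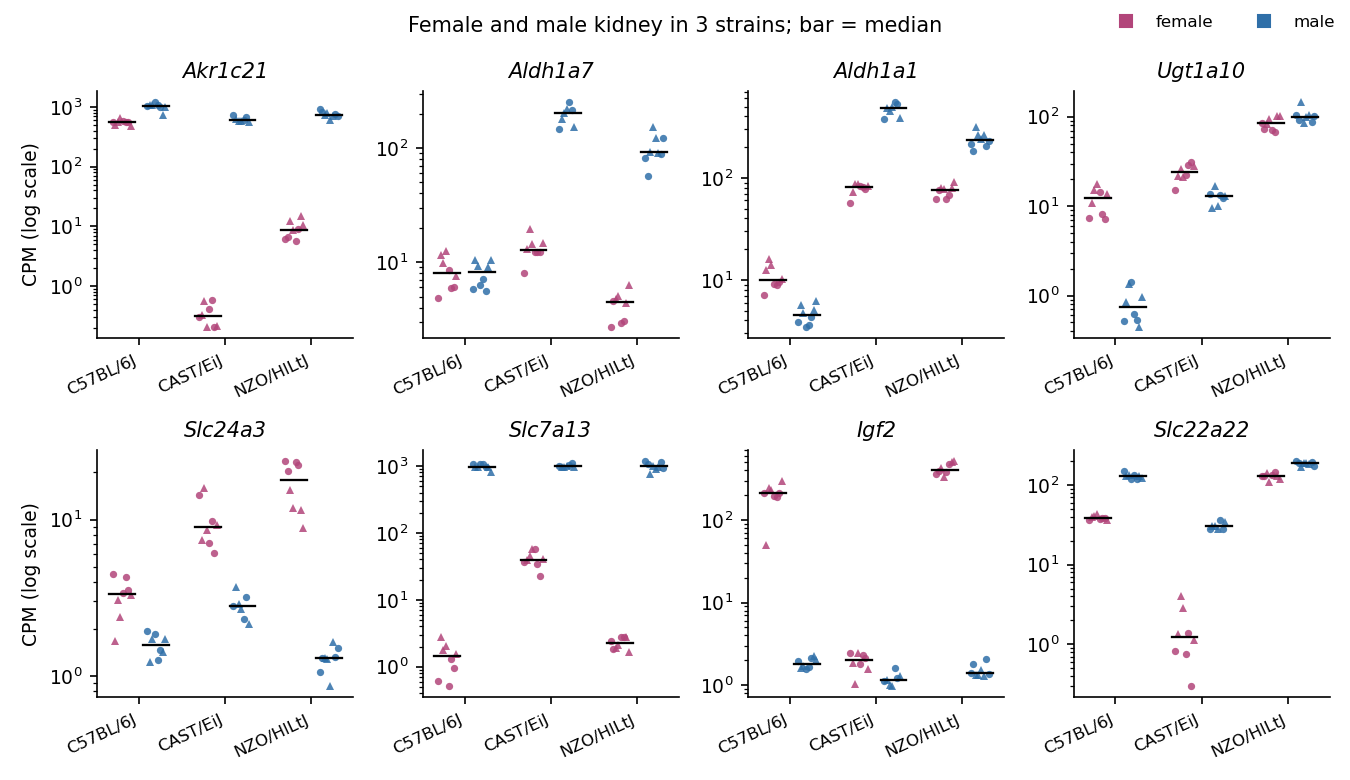
Level of 8 genes in each library of C57BL/6J, CAST/EiJ and NZO/HlLtJ kidney, females and males, on log axes in CPM, with circles for 10% fat, triangles for 44% fat and bars for medians. Akr1c21 has male medians of 1048, 614 and 739 CPM and female medians of 563, 0.312 and 8.75 CPM in the 3 strains, and Igf2 medians are 213 and 406.7 CPM in C57BL/6J and NZO/HlLtJ females and 2.01 CPM in CAST/EiJ females.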

How the data were processed

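RNA was sequenced from kidney of 3 mouse strains, 2 sexes and 2 diets, 47 libraries in all. Unscaled expected counts for each gene (21.2% of values not whole) were deposited, with a second table that the authors made from them, variance-stabilized values on a log2 scale. The genome build GRCm38 and DESeq2 are named in the submitters' processing notes. The aligner, the counter and its strand setting are not given in the sources used here. Poly(A) RNA was sequenced, and the spike-in RNA added per the labels was not used here.

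Expected counts were rounded to whole numbers, 3688 of 22474 genes were set aside by the default low-count filter over 12 groups, and 18786 were fitted with edgeR 4.0.16 (R 4.3.3) with TMM scaling, robust quasi-likelihood dispersions, 1 mean for each group of strain, sex and diet and a term for 3 blocks of library numbers, called runs here, (33 residual degrees of freedom). P-values were adjusted by Benjamini-Hochberg over all genes, and autosomal genes were picked afterwards. The runs are 77, 81 and 89, and their meaning is not stated. In run 81 the NZO/HlLtJ females were on 10% fat and the males on 44%, in run 89 the reverse, and in run 77 both diets were present in each sex.

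Genes were named by a rule. It took the 12 highest and 12 lowest log2 fold changes among called genes above a floor. The floor was an average log2 CPM of at least 1 over all 47 libraries and a mean of at least 10 counts in the higher sex. A gene above it can lie lower in NZO/HlLtJ, as Ankrd31 did at 0.137 to 1.86 CPM in females. The rule also took up to 6 per direction and up to 4 by smallest adjusted p in each list, and the first 4 genes of each list. Members against the direction of the rest were added where 5 or fewer, and up to 6 per direction in the differences between diets and strains. The comparison, members and lists were chosen with earlier results of these data known. The comparisons with other strains hold 6 genes outside the rule. The counts of named genes include 1 gene that is not reported here. Alternatives were DESeq2 1.42.0 with its size factors or its test, limma 3.58.1 with voom, the variance-stabilized log2 table deposited by the authors, no filter, no run term, NZO/HlLtJ alone, trimmed scaling without mitochondrial and the 50 highest genes, single runs, and leaving out each library. Library size alone was added after seeing the data. Scripts were tested on simulated data. Promoters came from RefSeq (GRCm38.p6), where 11587 of the 18195 autosomal genes tested had an entry. Shared 31-mers were counted in GENCODE M21 transcripts. Beside the genes given above, they made up 50.1% of Ces2c, 43.1% of Ass1, 41.5% of Slc22a13 and 40.5% of Klk1. For Myh1, Cyp2d9 and Odc1 the shares were 37.9%, 34.8% and 31.3%. How reads were split among copies bears on these values too. An X-linked gene was no member, which left out Cldn2, S100g and Avpr2.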

Additional observations from a re-analysis of the deposited data

Results flagged for a closer look

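In groups of 8 libraries, 14 of 364 groups tested (1 sex in 1 of 179 genes or in 1 of 3 library measures) had 1 library far from the rest by Dixon's test, where chance gives about 1 in 20. Replicate 1 of the males on 44% fat was the highest male in Cyp4a10 (307.8 CPM, next 168.9), Ugt1a10 (147.1 CPM, next 105.4), Gsta2 (26.42 CPM, next 15.23) and Aldh1b1 (3.991 CPM, next 2.679). Replicate 3 of the males on 44% fat was the highest male in Abcb1b (65.65 CPM, next 47.46), Slc7a12 (26.85 CPM, next 10.28) and Gc (6.134 CPM, next 4.077). Replicate 1 of the males on 10% fat was the highest male in Cyp2e1 (1981 CPM, next 1495) and Gstm5 (147.8 CPM, next 115.2), and replicate 2 of the males on 44% fat was the lowest male in Slc6a18 (773.9 CPM, next 850.2). Among females, replicate 2 on 44% fat was the highest in Gstp1 (61.63 CPM, next 53.05) and the lowest in Hnf4a (619.8 CPM, next 735.6). Replicate 1 on 44% fat was the highest female in Ces1g (3.18 CPM, next 1.662), and replicate 3 on 10% fat in Cyp2b10 (0.09873 CPM, next 0.04091). No call of these genes between the sexes was lost without 1 library, and Ugt1a10 was not called.

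The sex difference differed between diets for Ces1g, by 4.08 on the log2 scale. It differed from that in C57BL/6J, by the test of the difference, for Slc9a2 (1.07), Ugt2b34 (2.02), Slc24a3 (2.66), Ugt2b5 (3.05), Slc13a4 (2.02), Gsta3 (1.52), B4galnt2 (6.51), Akr1c21 (-5.48), Aldh1a1 (-2.91), Aldh1a7 (-4.64), Ugt1a6a (-1.92), Ugt1a10 (-4.07), Akr1c19 (-1.72) and Inmt (-3.17). It differed from that in CAST/EiJ for Akr1c21 (4.42), Mep1a (2.35), Slc22a22 (3.97), Gstp1 (1.41), Ugt2b5 (4.94), Ces1e (2.22), Igf2 (7.44), Prlr (2.67), Abcc3 (2.48), Ugt3a2 (-2.05), Slc7a13 (-4.17), Slc46a3 (-2.27), Aox3 (-5.00), Akr1d1 (-1.71), Slc25a48 (-1.12) and Pzp (-6.65).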

How the results depend on the processing

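Of 173 named genes called between the sexes, 170 were called in all 16 fits that left out 1 library, and 167 of these also under every alternative outside single runs. Calls were lost for Slc22a26, Aqp3 and Aqp4 where a library was left out, for Gstp1 and Mep1a with library size alone and for Aox3 under limma-voom. Leaving out 1 library gave 4286 to 4674 genes higher in females and 4248 to 4488 in males, 747 to 920 and 446 to 498 by 2-fold or more, 2814 to 3435 and 3018 to 3676 on 10% fat, 2519 to 3189 and 2617 to 3266 on 44% fat, 0 to 4 and 0 to 2 for the difference between diets, 406 to 538 and 358 to 479 against C57BL/6J and 1289 to 1421 and 1099 to 1247 against CAST/EiJ. With library size alone the counts were 7962 and 2072, 5575 and 1873 on 10% fat, 5877 and 1301 on 44% fat, and 1252 higher in females by 2-fold or more. Within single runs, with fewer libraries and, in runs 81 and 89, the sexes on different diets, the counts were 2790 and 2899 in run 77, 1298 and 1417 in run 81 and 1679 and 1807 in run 89, and by 2-fold or more 461 and 305 in run 81 and 415 higher in females in run 89. The variance-stabilized values, whose scale compresses low genes, gave 195 and 235 genes with a difference of 2-fold or more. For the difference between diets DESeq2 called 13 higher and 22 lower, limma-voom 2, limma on the variance-stabilized values 2 and the fit of NZO/HlLtJ alone 0. Values that turned with library size alone were 0.13 for Slc5a2, 0.12 for Slc2a2 and 0.13 for Aqp1. Within run 77 Slc2a2 was at 0.01, within run 81 Slc22a26 was at 0.64, Aqp1 at 0.09, Aqp2 at -0.35, Ugt2b5 at -0.09 and Calb1 at -0.15, and within run 89 Slc5a2 was at 0.19, Slc2a2 at 0.44 and Ugt1a10 at 0.10. Aqp2 was at -0.00 under limma-voom. The cause was not tested. No paired analysis was possible because the labels give no replicate numbers, which were assigned in accession order.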

Other observations

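Urothelial markers, of the lining of the renal pelvis, summed to 63.19 to 90.48 CPM in females and 42.19 to 57.78 CPM in males, with replicate 2 of the females on 44% fat the highest. Of 9 markers 5 were higher in females and none in males, and over all autosomal genes 25.2% and 24.7% were called in these directions.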
